A study of Mus musculus with 12 samples.

Results

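Long runs of open chromatin that kept a similar amount of signal in cKO and WT Th2 cells were described across the mouse autosomes. They were chosen by their measured ATAC signal in both genotypes. Peaks from 6 ATAC-seq libraries that shared at least 1 bp were merged. A merged region was taken where every library had a peak in it, its length was at least 4000 bp, its height was under 200, and the cKO/WT ratio of its mean summed tags lay above 0.6 and below 1.4. Tags are mapped reads scaled to 10000000 per library, and height is the tag count of a region's highest peak, averaged over the libraries. Of 114463 merged regions, 32845 were autosomal with a peak in every library, and 1014 of these met all the limits. A further 625 regions were as long but taller, 114 lay outside the ratio limits, and 31092 were shorter than 4000 bp.

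The study measured T helper 2 (Th2) cells of the mouse by ATAC-seq and by RNA-seq, with 3 libraries labelled cKO (conditional knockout) and 3 labelled WT in each assay. Its title names NRF2, a transcription factor that turns on antioxidant genes, and allergic asthma. The labels do not say which gene was deleted in the cKO cells, which promoter drove the deletion, or the age or strain of the animals. They do not say that libraries came from separate animals or cultures, so p-values measure the spread between these libraries, which may be technical.

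In ATAC-seq a transposase cuts DNA that nucleosomes leave exposed, and clusters of cuts are called as peaks. Most open sites are short, at a promoter or an enhancer. Long open stretches are known from genes that define a cell type, where several enhancers lie side by side, and from strongly transcribed genes, where openness runs from the promoter into the gene body. In T cells such genes include those of the antigen receptor and of the transcription factors that keep T cell identity. Th2 cells are the T helper subset that drives allergic inflammation through its cytokines.

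Promoters inside the regions differed in their sequence, and 6 are shown, of T cell genes at the centre of the results. These promoters and the motif marked in each were picked by hand, so the marks do not show how common a motif is. Other motif matches in these promoters are not marked. They run from 250 bases before to 50 bases after the annotated start (RefSeq, GRCm38.p6). Cd3d and Cd247 encode chains of the T cell receptor complex, Lck encodes the kinase that starts its signal, and Bcl11b encodes a transcription factor of T cell commitment. In these 4, capitals mark GGAAGT on either strand (ACTTCC where it lies on the other strand), the letters of an ETS factor motif.
Cd3d promoter, chr9:44981536-44981835, + strand: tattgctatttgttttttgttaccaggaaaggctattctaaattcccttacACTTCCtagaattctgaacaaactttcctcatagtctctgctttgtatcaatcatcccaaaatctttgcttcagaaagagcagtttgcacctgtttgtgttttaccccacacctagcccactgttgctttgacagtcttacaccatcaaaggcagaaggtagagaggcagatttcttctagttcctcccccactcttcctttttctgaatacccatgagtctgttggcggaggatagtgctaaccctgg
Cd247 promoter, chr1:165788431-165788730, + strand: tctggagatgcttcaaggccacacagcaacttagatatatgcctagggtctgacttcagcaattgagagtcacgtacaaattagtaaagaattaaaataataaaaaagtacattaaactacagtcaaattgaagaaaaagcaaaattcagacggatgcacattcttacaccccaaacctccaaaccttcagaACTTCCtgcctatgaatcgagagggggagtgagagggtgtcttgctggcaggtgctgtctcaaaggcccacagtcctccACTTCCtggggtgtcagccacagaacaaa
Lck promoter, chr4:129573592-129573891, - strand: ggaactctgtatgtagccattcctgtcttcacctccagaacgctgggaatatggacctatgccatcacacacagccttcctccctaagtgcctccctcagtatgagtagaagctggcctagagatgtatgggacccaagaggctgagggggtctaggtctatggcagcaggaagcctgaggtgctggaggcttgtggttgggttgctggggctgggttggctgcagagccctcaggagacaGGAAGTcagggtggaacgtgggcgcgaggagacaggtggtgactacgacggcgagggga
Bcl11b promoter, chr12:108003365-108003664, - strand: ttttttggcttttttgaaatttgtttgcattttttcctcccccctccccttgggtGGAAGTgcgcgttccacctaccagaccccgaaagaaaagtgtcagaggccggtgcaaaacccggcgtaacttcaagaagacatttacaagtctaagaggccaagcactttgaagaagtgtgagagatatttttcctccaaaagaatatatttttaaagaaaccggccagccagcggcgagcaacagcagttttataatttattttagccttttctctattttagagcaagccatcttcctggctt
Ikzf1 and Runx3 encode lymphoid transcription factors. In their promoters capitals mark GGGCGG on either strand (CCGCCC on the other), the letters of an SP/KLF motif.
Ikzf1 promoter, chr11:11685675-11685974, + strand: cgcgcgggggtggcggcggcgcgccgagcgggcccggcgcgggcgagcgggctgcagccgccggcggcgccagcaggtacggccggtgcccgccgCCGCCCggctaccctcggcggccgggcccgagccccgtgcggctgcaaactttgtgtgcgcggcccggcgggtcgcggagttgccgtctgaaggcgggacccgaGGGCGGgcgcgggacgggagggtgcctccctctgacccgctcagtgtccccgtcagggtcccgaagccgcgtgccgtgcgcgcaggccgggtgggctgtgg
Runx3 promoter, chr4:135152295-135152594, + strand: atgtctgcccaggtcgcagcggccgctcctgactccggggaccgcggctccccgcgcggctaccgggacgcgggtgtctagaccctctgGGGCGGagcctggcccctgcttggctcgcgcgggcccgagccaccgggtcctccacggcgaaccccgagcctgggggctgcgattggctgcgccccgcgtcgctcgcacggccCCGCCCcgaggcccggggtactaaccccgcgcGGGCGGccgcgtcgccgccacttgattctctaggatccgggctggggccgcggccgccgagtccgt

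The first 4 promoters held 1 to 9 CpG dinucleotides, with 1 in Cd3d, 3 in Cd247, 7 in Lck and 9 in Bcl11b. The promoters of Ikzf1 and Runx3 shown held 52 and 45. A second annotated Ikzf1 promoter in the same region (chr11:11689927-11690226) held 2 CpG and no SP/KLF letters, so Ikzf1 has both kinds. Over all 553 autosomal coding promoters inside the regions the median was 20 CpG, close to the 22 of the 10066 promoters in shared regions under 4000 bp. Promoters with fewer than 5 CpG made up 11.4% of those in the regions, against 3.26% in the shorter regions, 5.89% in the taller wide ones and 58.5% of the 8698 promoters outside all shared regions. That limit of 5 was chosen after the values were seen.

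The promoters were searched for 8 motifs on both strands, and shares are given with no test. They are set against the 10066 promoters in shorter shared regions, which are open too, and against all 20063 autosomal coding promoters. The ETS letters GGAAGT occurred in 25.7% of the 553 promoters, 28.6% of those in shorter regions and 25.0% of all. The antioxidant response element core TGACNNNGC, the type of site that NRF2 binds, occurred in 76 of the 553 (13.7%), in 14.8% of those in shorter regions and in 2616 of all. AP-1 and antioxidant response element letters can share bases.

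Which way these shares differed depended on the comparison. The RUNX letters TGTGGT were in 12.1%, against 11.6% in shorter regions and 14.8% of all promoters, and the AP-1 letters TGANTCA in 4.88%, against 4.56% and 7.06%. The SP/KLF letters GGGCGG were in 65.3%, against 68.3% in shorter regions and 47.0% of all. Lower than both were the NFY letters CCAAT, in 29.5% against 37.9% and 38.1%, and the cAMP response element TGACGTCA, in 1.08% against 3.6% and 2.3%. The E-box CAGCTG was in 17.2%, against 14.0% and 15.6%. A match says only that the letters are present in this window.

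The regions also covered 19 microRNA genes, in 15 regions. The 4 mature microRNAs shown are of families studied in T cells, and their seeds, bases 2 to 8, are in capitals. miR-24 and miR-27 are known from the mouse to restrain Th2 cytokine production, and let-7i belongs to the let-7 family.
mmu-let-7i-5p, chr10:122985698-122985719, - strand: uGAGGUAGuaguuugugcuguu
mmu-miR-23a-3p, chr8:84208563-84208583, + strand: aUCACAUUgccagggauuucc
mmu-miR-27a-3p, chr8:84208727-84208747, + strand: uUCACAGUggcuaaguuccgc
mmu-miR-24-3p, chr8:84208875-84208896, + strand: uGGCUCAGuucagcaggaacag
No pair of these 4 shared a seed. miR-23a, miR-27a and miR-24 lie in 1 cluster, inside a region of 5100 bp whose summed tags averaged 55.9 in cKO and 62.9 in WT. The let-7i region, 5551 bp long, was more open, with averages of 230.2 in cKO and 194.5 in WT.

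Few regions were 1 long peak in every library. Their median length was 4839 bp, with a middle range of 4301 to 5649 bp and a longest of 18490 bp, against a median of 1502 bp for all shared autosomal regions. Only 35 of the 1014 regions held an unbroken peak of at least 4000 bp in every library, 226 held one in at least 3 libraries, and 312 in none. The stretch that lay in peaks of all 6 libraries had a median of 2401 bp, or 47.8% of the region's length, and 13.5% of the summed length was covered in 1 library alone. The word wide therefore describes the merged outline.

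In cKO libraries the outline was more often broken into several peaks. Peaks covered 65.9%, 73.8% and 64.6% of the regions' length in cKO1, cKO2 and cKO3, against 80.7%, 73.3% and 74.3% in WT1, WT2 and WT3, so cKO2 lay beside WT2. Regions read as 1 peak made up 42.0%, 49.2% and 39.6% in cKO libraries and 58.8%, 54.7% and 50.9% in WT libraries, so all cKO values lay under all WT values. The share with a peak of at least 4000 bp was 15.8%, 27.3% and 12.8% in cKO libraries, against 39.4%, 30.6% and 27.0% in WT libraries, where cKO2 came just above WT3. The longest peak in a region had a median of 2580, 3120 and 2492 bp in cKO and 3688, 3234 and 3261 bp in WT. The rule used the summed tags of the same peaks, so these widths are a description. Libraries also differed in all the peaks called, with 54133, 64289 and 56148 in cKO1, cKO2 and cKO3. WT1, WT2 and WT3 had 75017, 60069 and 64585. The fewest were thus in cKO1 and cKO3 and the most in WT1, as for the covered length. Whether the widths are particular to these regions was not tested.

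Libraries held 13149952 to 17728414 tags in cKO and 13247145 to 18327127 in WT. Tags in peaks made up 34.9% to 35.4% in cKO, against 38.3% in WT1, 35.6% in WT3 and 25.2% in WT2, which stood apart. WT2 had the lowest summed tags of the WT libraries in 933 of the 1014 regions, and the lowest of all 6 libraries in 591. Medians of the ratio are therefore also given without it.

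Signal per region was similar in the 3 cKO libraries and spread in WT. The median region held 118.8, 121.8 and 114.4 tags in cKO1, cKO2 and cKO3, against 144.6, 104.2 and 139.3 in WT1, WT2 and WT3. All cKO medians lay between that of WT2 and those of the other WT libraries. The coefficient of variation of a region within a group had a median of 8.87% over cKO libraries and 19.9% over WT libraries. Per kb of called peak, the median region held 33.6, 31.5 and 33.3 tags in cKO, against 34.4 in WT1, 26.3 in WT2 and a value just above that of WT1 in WT3. In cKO1 and cKO3 the regions were thus covered over a smaller length than in any WT library, at a tag density between those of WT2 and WT1.

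**Figure D1:**
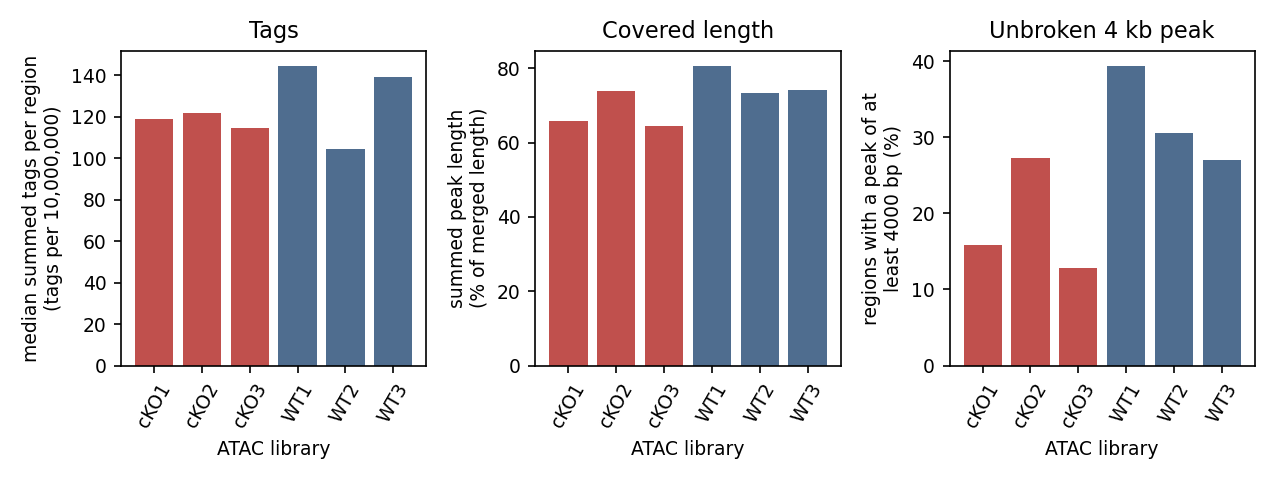
Wide stable regions in each ATAC library (3 cKO in red, 3 WT in blue): the median summed tags per region (tags per 10000000), the share of the merged length covered by peaks (%) and the share of regions with an unbroken peak of at least 4000 bp (%). The cKO bars for tags stand at 118.8, 121.8 and 114.4 and the WT bars at 144.6, 104.2 and 139.3; the unbroken share is lowest in cKO3, at 12.8%, and highest in WT1, at 39.4%.

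The cKO/WT ratio of summed tags, which the rule limited, had a median of 0.94 over the 1014 regions and 0.89 over all 32845 shared regions. It was under 1 in 630 regions (62.1%), and lay between 0.8 and the inverse of 0.8 in 731 (72.1%), with 227 below and 56 above that range. The limits thus admit regions whose group means differ by more than that. With WT2 left out of the WT mean, the medians were 0.85 over the 1014 regions and 0.82 over all shared regions. All cKO libraries lay under all WT libraries in 140 regions (13.8%) and above them in 56 (5.52%), against 22.2% and 13.6% of all shared regions. The rule removes the most unequal regions, so nothing is read from those shares.

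The ratio differed with position. At regions that touched or lay within 1 kb of the start of a coding gene the median was 1.00 (552 regions), inside genes 0.85 (328 regions) and between genes 0.87 (134 regions). Here and below, a region inside a gene overlaps a coding gene by any amount without being at its start, and may run past its far end. Without WT2 these medians were 0.91, 0.78 and 0.81. The other shared regions, whose ratio the rule did not limit, had medians of 1.16 at starts, 0.76 inside genes and 0.77 between genes, or 1.04, 0.69 and 0.71 without WT2. With the regions split into 4 groups by length, from short to long, the medians were 0.93, 0.95, 0.96 and 0.93, or 0.85, 0.85, 0.89 and 0.84 without WT2. All these ratios come from the values that the rule limited.

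More than 1 in 2 regions sat at a coding gene. They touched or came within 1 kb of a gene's start in 552 cases, 54.4% of the regions (95% Wilson interval 51.4% to 57.5%, counting error only), lay inside a gene in 32.3% and between genes in 13.2%. Among the other shared regions the shares were 34.4%, 35.7% and 29.9%, and among the taller wide regions 83.8% were at a start. A long region touches more of anything: by the region's centre alone, 28.5% of the wide stable regions and 31.6% of the other shared regions lay at a start. The gene table gave a strand-aware start for 79.6% of autosomal coding genes, and for the others either end was used.

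Where a start with known strand lay inside a region, openness reached further into the gene than upstream of it. In the 294 regions with exactly 1 such start, the median was 3184 bp downstream and 1734 bp upstream, and 204 (69.4%) were longer downstream. Of the 552 regions, 473 were at 1 coding gene, 71 at 2 and 8 at 3 or more, which gave 633 coding genes. Only 19 regions held a divergent pair of coding starts within 1 kb. The regions also overlapped 203 long noncoding RNA genes, 27 tRNA genes in 8 regions and 11 snoRNA genes in 7.

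Regions were uneven over the chromosomes. Chromosome 11 held 114, or 4.4% of its shared regions, and chromosome 15 held 68, or 4.54%. Chromosome 16 held 16, or 1.35%, and chromosomes 13 and 18 held 27 and 18. Some regions formed groups: 82 gaps between neighbours were under 10 kb and 202 under 50 kb, while the median gap was 498.8 kb.

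The longest region spanned 18490 bp at Ikzf1, the gene of the lymphoid transcription factor Ikaros (chr11:11683064-11701554, mm10). It holds both annotated Ikzf1 starts, one of them in the CpG-rich promoter with 52 CpG and the other in a promoter with 2 CpG. Its summed tags were 292.1, 297.4 and 273.5 in cKO1, cKO2 and cKO3, against 458.6, 397.0 and 437.8 in WT1, WT2 and WT3. All cKO libraries lay under all WT libraries, with means of 287.7 ± 12.6 in cKO and 431.1 ± 31.3 in WT (SD, n = 3 each) and a ratio of 0.67. The region was read as 5, 6 and 5 peaks in cKO and as 2, 4 and 6 in WT. In WT1 a single peak of 12349 bp held 399.0 tags, while the cKO libraries, WT2 and WT3 had a gap between the promoter peak and the next one.

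The promoter peak itself was nearer in size. It held 112.1, 126.4 and 122.1 tags in cKO libraries over 2684, 3112 and 2785 bp, against 141.6 tags in WT2 over 5171 bp and 145.3 in WT3 over 2641 bp. WT1 cannot be set beside these, since its peak ran on past the second start. Ikzf1 RNA was 3061.8, 1664.7 and 3003.9 normalized counts in the cKO libraries and 2229.5, 1482.4 and 1813.8 in the WT libraries, which overlapped (log2 change 0.45, SE 0.23; adjusted p = 0.459, limma with Benjamini-Hochberg adjustment).

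**Figure D2:**
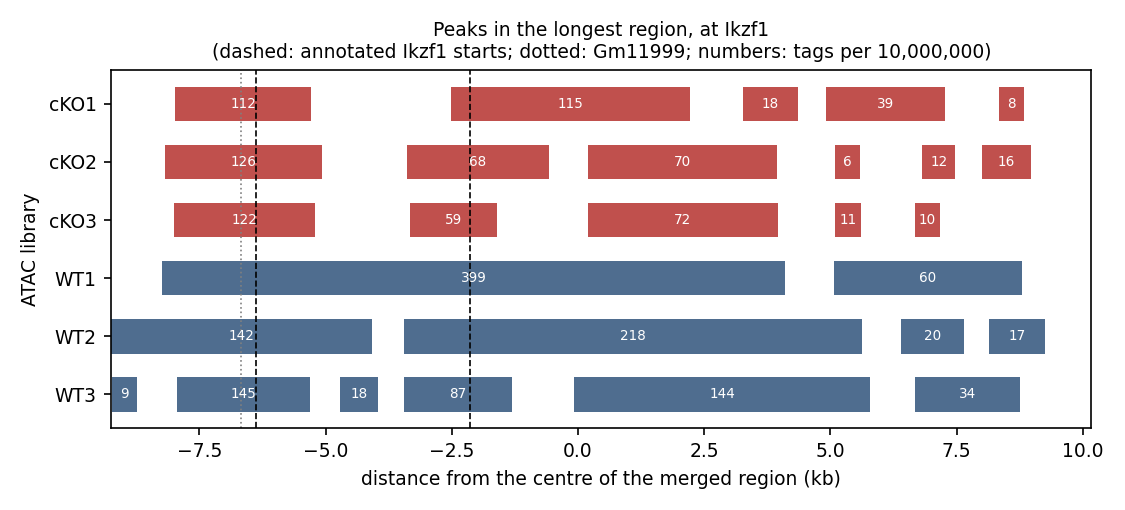
Called peaks in the region at Ikzf1, to scale, by distance from the region's centre (kb); each row is an ATAC library (cKO in red above, WT in blue), numbers are tags per 10000000 in each peak, dashed lines the annotated Ikzf1 starts and the dotted line the start of Gm11999. The cKO libraries have 5, 6 and 5 peaks and the WT libraries 2, 4 and 6; WT1 has a peak of 12349 bp with 399.0 tags.

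Other T cell transcription factor genes also held some of the longest regions. Bcl11b carried 2 of the 8 longest inside the gene, of 14437 and 11254 bp, and another of 5465 bp at its promoter. The longest (chr12:107969581-107984018) had 221.5, 180.5 and 191.7 tags in cKO and 328.0, 260.9 and 279.0 in WT, with no overlap and a ratio of 0.68. The next (chr12:107989840-108001094) had 136.3, 150.3 and 103.8 tags in cKO and 204.9, 191.8 and 204.7 in WT, again without overlap. The region at the Bcl11b promoter (chr12:108001549-108007014) held 179.0, 181.1 and 146.0 tags in cKO and 196.6, 147.0 and 173.8 in WT. The groups thus overlapped at the start and not at the 2 regions inside the gene.

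Ets1, which encodes an ETS factor of lymphocytes, held a region of 13412 bp inside the gene (chr9:32708112-32721524). Its summed tags were 191.5, 216.0 and 204.3 in cKO and 364.6, 248.3 and 331.6 in WT, with a ratio of 0.65. Satb1, which encodes a chromatin organizer of T cells, held 12371 bp at its start (chr17:51808392-51820763), with 154.8 ± 15.0 tags in cKO and 216.8 ± 5.88 in WT (SD, n = 3 each). Both regions had all cKO values under all WT values. A region of 13123 bp over J segments of the T cell receptor alpha locus (chr14:54203131-54216254) held 130.4, 166.2 and 158.6 tags in cKO against 228.7, 185.1 and 237.3 in WT, also without overlap. In T cells that locus is rearranged, so copies of these segments differ from cell to cell.

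Of the 8 longest regions, 6 had all cKO libraries under all WT libraries, against 13.8% of the 1014 regions and 22.2% of all shared regions. The rule limited these values, so nothing is read from the count. Trpm8, which encodes a cold-sensing ion channel, held 16787 bp with 239.8, 220.8 and 260.8 tags in cKO and 188.0, 291.6 and 188.5 in WT, where WT2 was the highest of all. Cd6, which encodes a T cell adhesion coreceptor, held 12627 bp with 224.3, 260.0 and 285.1 tags in cKO and 340.5, 245.8 and 341.3 in WT. Among the 20 longest regions 16 had a ratio under 1, and the median ratio was 0.84, or 0.74 without WT2.

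The regions with the most tags after Ikzf1 included some at kinase, coreceptor and receptor genes. Others of the 8 highest had no such gene: one lay between genes, 43277 bp from the nearest coding gene, Fndc1, and one inside Abtb2. Prkch, which encodes a protein kinase C of T cells, held 291.1, 247.6 and 267.3 tags in cKO and 412.2, 279.9 and 426.5 in WT. The region shared by Tapbpl and Cd27, a costimulatory receptor gene, held 309.8, 287.1 and 285.9 in cKO and 314.8, 231.6 and 304.1 in WT. Itpkb, the gene of an inositol phosphate kinase needed in T cell development, held 299.4, 293.9 and 280.3 in cKO and 279.7, 222.1 and 270.0 in WT. Prkch and Cd27 overlapped between groups, while Itpkb was higher in every cKO library.

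At the limits of the rule, members and near misses were alike. The shortest member, at Mat2b, was 4000 bp long, and the longest region left out for its length, at Cyp2t4, 3999 bp. Height was 199.97 at Hes1, inside the limit, and 200.05 at Laptm5, outside it. The ratio was 0.603 at Asap1 inside and 0.598 at Ptger2 outside the lower limit, and 1.394 near Cstad inside and 1.402 at Fbxw5 outside the upper one, where Lif was nearer still.

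T cell genes were frequent at wide regions, both stable and taller. A gene was placed at a region where its start, or either end where no strand was given, lay in the region or within 1 kb of it. Of 13166 autosomal coding genes tested for RNA, 4.28% were at a wide stable region and 4.52% at a taller wide one. Of 40 genes of T cell receptor signalling and coreceptors, 15 (37.5%) were at a wide stable region and 7 (17.5%) at a taller one. Of 61 T cell transcription factors, 15 (24.6%) were at a wide stable region and 18 (29.5%) at a taller one. Actin, adhesion and migration genes had 12 of 36 (33.3%) and chromatin regulators 7 of 36 (19.4%). The lists were chosen with results of these data known, and no test was made on them.

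The receptor signalling genes at wide stable regions ran through the pathway. Among them were Cd3d, Cd3g and Cd247 of the receptor complex, the coreceptor genes Cd2 and Cd6, the kinase Lck, the adaptors Lcp2 and Sh2d2a, Prkcq of the NF-kappaB branch, the brakes Dgkz, Ptpn22 and Pdcd1, and the costimulatory receptors Cd27 and Tnfrsf4. The regions of Fyn, Plcg1 and Ptprc lay inside the gene and not at its start. Cd3d and Cd3g share 1 region of 5566 bp (chr9:44977804-44983370), so they are not independent.

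Among the transcription factors were Tcf7 and Lef1 of naive T cells, Bcl6, Bhlhe40, Id2, Myb and Runx3, the ETS gene Fli1, Foxp1, Nfkb1 and Stat5b, beside Ikzf1, Bcl11b and Satb1. Gata3, the lineage factor of Th2 cells, had a wide stable region inside the gene, as did Bach2, Ets1, Irf4, Nfatc1, Nfkb2, Smad7, Stat3 and Stat5a. Chromatin genes at such regions included Tet2 and Tet3, which encode enzymes that oxidize methylated cytosine, and the remodelling subunit Arid1b.

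The other lists had smaller shares at wide stable regions. Of 33 NRF2 targets, 2 were (6.06%): Mafg, which encodes a small Maf partner of NRF2, and the heme transporter gene Slc48a1. The Mafg region held 183.5, 180.5 and 169.5 tags in cKO and 203.8, 124.1 and 175.0 in WT, and that of Slc48a1 held 65.2, 73.6 and 58.9 in cKO and 111.0, 76.1 and 99.9 in WT. The groups overlapped at Mafg and not at Slc48a1. Of 47 oxidative phosphorylation genes none was at a wide stable region, and 43 were at shorter shared ones. Cytokines, chemokines and their receptors had 5 of 51 (9.8%), namely Ccr4, Ccr7, Il12rb1, Ltb and Socs2, and cell cycle genes 3 of 40 (7.5%). Immediate early and heat shock genes had 2 of 34 (5.88%), Ier3 and Zfp36l2, while 15 (44.1%) were at taller wide regions.

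**Figure D3:**
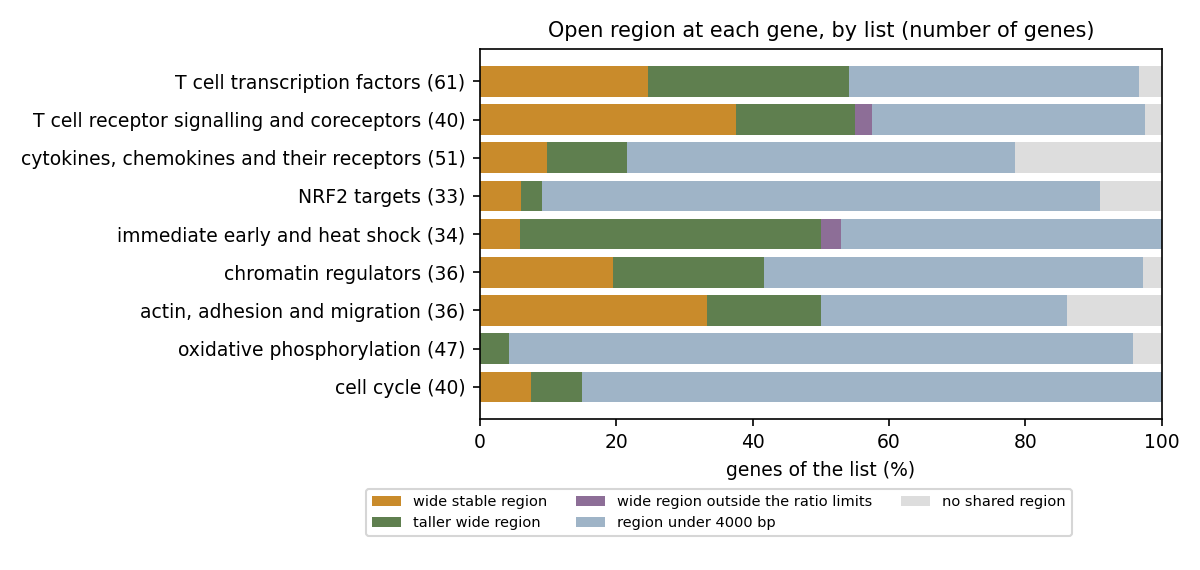
Share of each gene list (%) by the open region at the gene, with the number of genes of the list in parentheses. Wide stable regions hold 37.5% of the receptor signalling genes, 33.3% of actin, adhesion and migration genes and none of the oxidative phosphorylation genes; taller wide regions hold 44.1% of immediate early and heat shock genes.

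The T cell label fitted the markers measured in RNA. The 8 T cell markers summed to 10560 to 14330 normalized counts in cKO libraries and 10660 to 12560 in WT libraries, and 5 of them (Cd2, Cd247, Cd3d, Cd3g and Lck) were at wide stable regions. The 6 B cell markers summed to 246.0 to 361.9 in cKO and 185.9 to 460.1 in WT, and 7 myeloid and dendritic markers in the table to 165.3 to 228.8 in cKO and 184.3 to 264.2 in WT. Markers of CD8, NK and gamma delta T cells summed to 164.8 to 199.6 in cKO and 195.0 to 201.9 in WT, and epithelial and stromal markers to 377.8 to 579.0 in cKO and 427.0 to 641.0 in WT. Other lists were near 0, but few of their markers were matched. Of 8 eosinophil, basophil and mast cell markers, the 2 matched summed to 31.1 to 40.7 in cKO and 19.5 to 27.9 in WT. Of 6 erythroid markers, the 1 matched had 0 to 14.3 in cKO and 0 to 4.61 in WT. Of these other markers Cd68 and Pdgfra were at wide stable regions. In bulk samples fewer cells of a type and less RNA per cell cannot be told apart.

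Genes at wide stable regions were expressed at an intermediate to high level. The RNA table gives the authors' normalized counts, which are not divided by gene length. Levels are therefore compared as medians over sets, and any order of single genes also carries their length. The 663 genes at these regions had a median of 236.5 normalized counts, against 466.0 for the 696 genes at taller wide regions, 179.1 for the 11346 at shorter shared regions, 10.6 for the 8590 at no shared region and 40.1 for all 25700 genes. Per library, the median over the 663 genes was 241.7, 216.7 and 258.5 in cKO and 234.8, 204.0 and 209.8 in WT. Across these genes the level followed the region's summed tags weakly (Spearman rho 0.26 over 663 genes, which share libraries and are not independent).

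**Figure D4:**
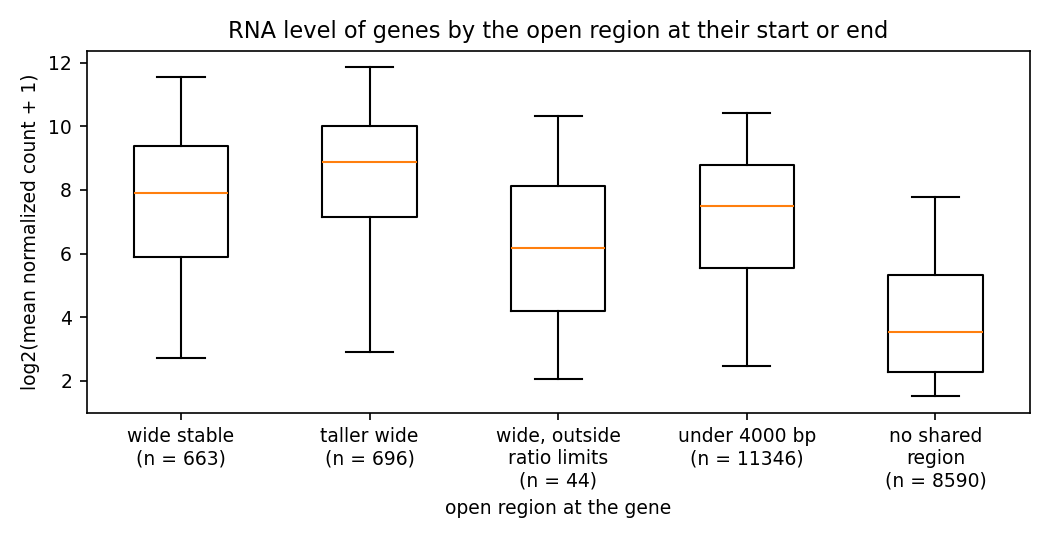
RNA level of genes, log2 of the mean normalized count over 6 RNA libraries plus 1, by the open region at the gene; the line is the median, the box the middle range and the whiskers run between the outer twentieths. Genes at wide stable regions have a median of 236.5 normalized counts, under the 466.0 of genes at taller wide regions and above the 179.1 of genes at regions under 4000 bp.

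Most of the highest counts, not divided by gene length, belonged to genes of the translation machinery and the cytoskeleton. Rps9, Rps15, Rpl3, Rpl8, Rpl10a and Rpl12 encode ribosomal proteins, Rack1 a ribosomal scaffold, Actg1 cytoplasmic gamma actin and Ccnd2 the G1 cyclin D2. Rps9 had 16327, 21616 and 16088 normalized counts in cKO and 24651, 27241 and 28526 in WT, and Actg1 had 12750, 13115 and 14435 in cKO and 18155, 16757 and 19075 in WT. Neither overlapped between groups, and neither passed the threshold: the log2 change was -0.58 for Rps9 (adjusted p = 0.0984) and -0.42 for Actg1 (adjusted p = 0.148, both limma with Benjamini-Hochberg adjustment). Ribosomal protein and actin genes have many near-identical copies in the genome, and the submitters' notes list RSEM, which divides shared reads between copies by estimation, without saying which step it served, so these values are uncertain.

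RNA was measured in libraries that the rule did not use, so its difference between genotypes could be tested. At an adjusted p of 0.05 (limma, log2 of the normalized count plus 1, Benjamini-Hochberg over all 18074 genes tested), 1 of the 601 genes tested at wide stable regions was higher in cKO and 0 were lower. Over all genes 0.0332% were higher and 0.172% lower, or 0.205% in either direction. At an unadjusted p under 0.05 there were 94 genes (15.6%), against 12.1% of all genes. The share was 14.6% at shorter shared regions, 22.6% at taller wide ones and 7.63% at no shared region. Groups did not overlap for 69 genes higher in cKO (11.5%, against 7.4% of all genes) and 51 lower (8.49%, against 9.76%). At taller wide regions these shares were 12.9% and 9.08%, and at shorter shared ones 7.75% and 12.4%. A total of 62 of the 663 genes had a mean under 10 normalized counts and were not tested.

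The median log2 change was 0.15 over the 601 genes, with 393 (65.4%) above 0, against 0.06 and 55.0% over all genes. Taken for each cKO library against the WT mean, that median had an SD of 0.16 (n = 3), as large as the median itself. By the log2 fold change in the authors' deposited table the median was 0.03. For many genes that fold change is smaller in size than in limma, as for Amigo3 (0.12 against 1.33) and Acap3 (0.11 against 1.00). The medians by limma and by the authors are thus on unlike scales. In the limma fit the median was 0.19 over genes at taller wide regions and 0.03 over genes at shorter shared regions. RNA libraries carry the same names as the ATAC libraries, and the labels do not tie them to each other. Leaving out 1 RNA library at a time gave medians from 0.08 without cKO3 to 0.23 without cKO2. Across genes, the log2 change and the log2 cKO/WT ratio of the region had a Spearman rho of 0.02 (601 genes, which share libraries).

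The gene past the threshold was Cd83, which encodes a surface protein of activated lymphocytes and dendritic cells. It had 1332.5, 1255.4 and 1608.5 normalized counts in cKO and 631.71, 460.65 and 561.99 in WT. All cKO values were above all WT values (log2 change 1.35, SE 0.18, 2.54-fold; adjusted p = 0.0175, limma with Benjamini-Hochberg adjustment). The call was lost without RNA library WT2 (adjusted p = 0.0632, limma), without WT3 (0.107), without cKO1 (0.114), without cKO3 (0.128) and without the mean-variance trend (0.446).

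Cd83 met its region only loosely. The region of 4901 bp (chr13:43803810-43808711) begins 677 bp past the gene's higher-coordinate end, and the table of starts gave no strand for the gene. It held 26.2, 43.7 and 28.5 tags in cKO and 79.3, 30.9 and 38.3 in WT. A shared region of 3565 bp inside Cd83 held 89.7, 82.6 and 71.1 tags in cKO and 119.6, 93.6 and 151.3 in WT, and one of 7184 bp beyond its lower-coordinate end 408.3, 427.0 and 449.0 in cKO and 398.2, 272.2 and 404.7 in WT. A shared region of 2608 bp over the lower-coordinate end of Cd83 held 104.5, 108.0 and 104.2 tags in cKO and 94.4, 70.7 and 71.7 in WT. Around the gene, the 2608 bp and 7184 bp regions were thus higher in every cKO library, the 3565 bp region lower in every cKO library, and the wide one overlapped between groups.

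Among the genes with the smallest p in the higher direction, 5 did not pass. Mbnl1, the gene of a splicing regulator, had 5378.3, 3974.9 and 5605.0 normalized counts in cKO and 2864.3, 2843.2 and 2980.5 in WT (log2 change 0.77, SE 0.15; adjusted p = 0.0635, limma). Bhlhe40, a transcription factor gene of activated T cells, had 4253.8, 2780.5 and 4736.5 in cKO and 2562.8, 1877.8 and 2013.9 in WT (log2 change 0.84; adjusted p = 0.104, limma). For both, every cKO library lay above every WT library, and with the replicate number as a block their adjusted p (limma) was 0.0345 and 0.0351. With a library left out, it ran from 0.0167 (without cKO2) to 0.385 (without cKO1) for Mbnl1. For Bhlhe40 the same 2 settings gave 0.0235 and 0.456, the lowest and highest. Without the mean-variance trend it was 0.461 for Mbnl1 and 0.475 for Bhlhe40. Ttyh3 and Otx1 had log2 changes of 0.83 and 1.19. Pagr1a had 187.0, 74.96 and 60.66 in cKO and 0, 7.91 and 15.1 in WT, and an exact 0 in this table can be a failed estimate.

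In the lower direction, Rps9 came first and none passed. Txndc17, the gene of a thioredoxin-like protein, had 522.4, 593.9 and 542.9 normalized counts in cKO and 826.4, 849.7 and 1062.8 in WT (log2 change -0.71, SE 0.17; adjusted p = 0.112, limma). Snhg16, a host gene of small nucleolar RNAs, had 268.3, 234.1 and 217.3 in cKO and 420.2, 358.0 and 445.8 in WT (log2 change -0.76; adjusted p = 0.141, limma). All cKO values lay under all WT values for both. Rpl35 and Arl5c had log2 changes of -0.47 and -1.46. By the authors' deposited table, whose adjusted p covers 453 of the genes at the regions, 11 were higher in cKO and 7 lower, or 3.97% together. Of all genes with an adjusted p in the authors' deposited table, 1.78% were higher and 3.9% lower, or 5.68% together. The authors' deposited table puts Cd83, Mbnl1, Bhlhe40, Ttyh3 and Otx1 among the higher and Rps9, Rpl35, Snhg16 and Txndc17 among the lower.

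**Figure D5:**
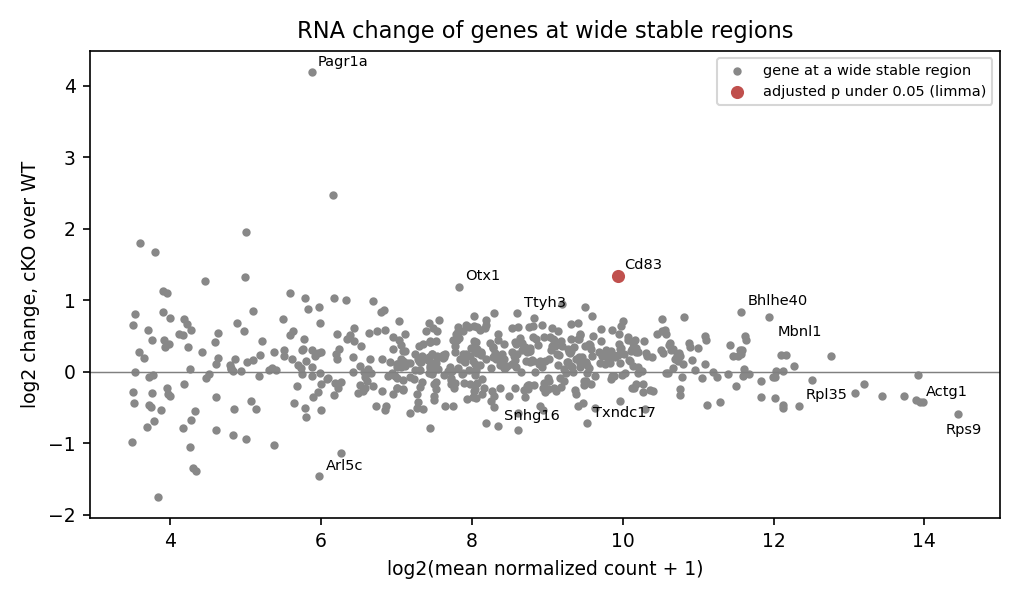
RNA log2 change, cKO over WT, of the 601 tested genes at wide stable regions against log2 of the mean normalized count plus 1; names mark the 6 genes with the smallest p in each direction. Cd83, in red, is the gene past an adjusted p of 0.05, and 393 genes lie above 0.

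Of the 15 transcription factors and the 15 receptor signalling genes at the regions, 0 passed the RNA threshold (limma with Benjamini-Hochberg adjustment). With 0.205% of all genes past it, a count of 0 says little about lists of this size. Their median log2 changes were 0.16 and 0.08, against 0.06 over all genes. The 12 actin, adhesion and migration genes had a median of 0.14 and the 7 chromatin regulators one of 0.32.

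Of the receptor complex genes, Cd3d and Cd3g share a region and differed in RNA values. Cd3d had 1742.6, 2053.9 and 1808.7 normalized counts in cKO and 2367.4, 2477.6 and 2900.4 in WT, with no overlap (log2 change -0.46; adjusted p = 0.206, limma). Cd3g, at the same region, had 1523.0, 1386.0 and 1710.7 in cKO and 1373.1, 1665.8 and 1650.5 in WT, which overlapped (log2 change -0.02). Whether the difference between the 2 genes exceeds their spread was not tested. Lck had 3247.0, 2696.5 and 3507.8 in cKO and 3836.8, 2487.2 and 2957.6 in WT, and Tnfrsf4, which encodes OX40, had 3627.6, 3265.6 and 3589.6 in cKO and 3781.9, 3932.2 and 3763.6 in WT. Lck overlapped between groups, while Tnfrsf4 was lower in every cKO library by a log2 change of -0.13 (adjusted p = 0.719, limma).

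The 12 actin, adhesion and migration genes went both ways, from a log2 change of -0.48 to 0.71. Ezr, which encodes the membrane linker ezrin, had 1277.3, 1074.2 and 1411.0 normalized counts in cKO and 1064.3, 532.9 and 772.1 in WT (log2 change 0.71; adjusted p = 0.222, limma). The chemokine receptor gene Ccr7, from the cytokine list, had 3749.5, 3394.0 and 3870.0 in cKO and 2516.4, 2641.7 and 2960.3 in WT (log2 change 0.44; adjusted p = 0.194, limma). Gpr183, the gene of an oxysterol receptor that guides lymphocytes, had 511.5, 438.1 and 659.6 in cKO and 393.8, 368.8 and 387.7 in WT (log2 change 0.46; adjusted p = 0.376, limma). For these 3 every cKO value was above every WT value, and none passed the threshold. The Ccr7 region was 1 peak in every library and held 178.7, 186.1 and 166.2 tags in cKO and 193.2, 141.9 and 221.5 in WT, which overlapped.

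Cell cycle genes gave the opposite sign for 2 of 3. Rrm2, which encodes a subunit of ribonucleotide reductase, had 771.4, 471.0 and 727.9 normalized counts in cKO and 1171.9, 709.1 and 900.0 in WT, E2f2 had a log2 change of -0.14, and Ccnd2 one of 0.22; all 3 overlapped between groups. The Ccnd2 region was among the lowest ratios of the named genes, with 32.8, 55.8 and 35.3 tags in cKO and 70.3, 46.1 and 83.4 in WT. Of the NRF2 targets at the regions, Mafg had 599.9, 493.4 and 584.2 normalized counts in cKO and 583.2, 629.1 and 562.4 in WT, and Slc48a1 had 295.7, 141.8 and 272.3 in cKO and 245.2, 243.6 and 108.1 in WT. Both overlapped between groups.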

How the data were processed

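The regions and the gene lists were chosen with earlier results of these data known. Per the submitters' processing notes the build was mm10, and HOMER 4.11, Bowtie2 2.3.5.1, STAR and RSEM 1.3.3 were among the tools, with DESeq2 and edgeR. Peaks were called by the authors in each library alone, per the file headers, with HOMER's findPeaks at a Poisson p-value of 0.001. The deposited tag count is a signal in which each library is brought to 10000000 tags, per the file headers; at most 1 tag per bp was counted. The deposited peak score, a score, served to rank peaks in 2 alternatives. A broken region has gaps where the tag density fell under the caller's threshold, which depends on depth. The deposited RNA values are a signal, the authors' normalized counts, and are not whole numbers: no reads could be recovered from them, and sequencing depth is unknown; library totals ran from 6431081 to 7372007 in cKO and from 6916169 to 7342611 in WT. The authors' deposited log2 fold change and adjusted p-value were used as alternatives.

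Merging used pandas 2.3.3 and numpy 2.4.6 in Python 3.11.15. Length is end minus start. RNA was tested with limma 3.58.1 in R 4.3.3 (trend, two-sided, pseudocount 1, genes with a mean of at least 10, Benjamini-Hochberg, threshold 0.05) and the fit was tested on simulated data. A fold change on that scale understates the change of low genes. Genes were placed with the RefSeq GRCm38.p6 gene table, by symbol for 83.2% of the RNA table's rows; promoters and microRNAs are from RefSeq. Intervals used scipy 1.17.1 and figures matplotlib 3.10.9. Regions named were the 8 longest, the 8 with the highest tags, the 4 nearest a ratio of 1 and the 4 on each side of each limit. Genes named were those past the threshold, the 6 with the smallest p in each direction with a mean of at least 50, the 10 highest, and from each of 9 lists the 3 at the regions with most tags. A few genes that these rules name are not reported here. Other genes named, among them Cd3d, Cd3g and Lck, were chosen after their values were seen. Alternatives were other peak thresholds, overlaps and limits, other pseudocounts, filters, normalizations and variance models, a replicate block, each library left out, and other distances to genes.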

Additional observations from a re-analysis of the deposited data

How the results depend on the processing

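The number of regions was 137 from peaks above each list's median score, 617 from equal numbers of top peaks, 2516 at 3000 bp, 448 at 5000 bp, 1530 with no height limit, and 818 to 942 with a library left out. The median ratio was 0.837 from peaks above the median score, 0.909 with equal tags over peaks, and 0.867 to 0.991 with a library left out. Added after seeing the data were an unbroken peak of 4000 bp in every library (35 regions) or in at least 3 (226 regions), and ATAC library WT2 out of the mean over the same regions (0.853).

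Genes past the threshold numbered 2 with a pseudocount of 5, 2 with trimmed mean rescaling, 3 with quantile normalization, 0 without the trend, 0 at 0 kb, 2 at 5 kb, 0 at regions of at least 5000 bp, 0 at regions with the unbroken peak in at least 3 libraries, 18 by the authors' adjusted p, and 0 to 6 with a library left out. With the replicate number as a block there were 3. The numbers share no stated source: same-number correlations of deviations were 0.12, 0.21 and -0.06, and different-number ones ran from -0.27 to 0.22. The median log2 change stayed above 0 in all alternatives run, and was 0.03 in the authors' table, whose fold changes are smaller in size for many genes. The median level was 262.3 at regions of at least 5000 bp and 378.0 with the unbroken peak. The share at a start was 63.6% at 5 kb, 58.3% at regions of at least 5000 bp and 58.0% with the unbroken peak; the SP/KLF share was 60.4% at regions of at least 5000 bp.

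Of 574 comparisons over 41 named genes, 545 kept direction and side of the threshold. Only Cd83 among them passed in the main fit, so for the other genes staying short of the threshold says little. Cd83 lost its call in 5 of the 14 settings. With a library left out, the log2 change crossed 0 for Bcl6 (-0.05 to 0.15), Cd6 (-0.01 to 0.25), Il12rb1 (-0.33 to 0.03), Ltb (-0.10 to 0.18), Mafg (-0.14 to 0.00), Slc48a1 (-0.12 to 0.60), Ier3 (-0.22 to 0.33) and Tet3 (-0.04 to 0.33). Under quantile normalization it turned for Rpl3 (0.14) and Rpl10a (0.09). The cause of each change was not tested. Depth and the share of tags in peaks limit which gaps inside a region are real.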
